A study of Mus musculus with 9 samples.

Results

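The 44 genes described here build and run the machinery that copies DNA: the MCM helicase, the factors that load and start it, the sliding clamp, the polymerases, the enzymes that finish Okazaki fragments, the enzymes that supply nucleotides, and the factors that restore chromatin behind the fork. They were chosen by symbol for their role, with earlier results of these data known but no threshold on measured values, and all 44 were found among the 46517 genes of the table. RNA was sequenced from 4 spleens of plckGAPDH mice (labelled with animals 331, 343, 508 and 547), from 3 spleens of wild-type mice (1, 4 and 5) and from 2 lymph nodes of plckGAPDH mice (455 and 508). All animals were C57BL/6 mice older than 18 months. The plckGAPDH line carries a transgene of Gapdh, a glycolytic enzyme, driven by the promoter of Lck, a kinase gene of T lineage cells. The labels describe these mice as developing tumours, and the protocol names splenocytes as the source of RNA. A spleen and a node both came from animal 508. The data columns name animals 547, 508 and 343, while the column of 1 more plckGAPDH spleen carries no number and could not be matched to animal 331. It is called the unnumbered spleen here, and it was not settled if the 4 columns stand for 4 animals. The p-values therefore measure the spread between these samples.

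DNA replication starts in 2 steps that are kept apart in the cell cycle. In G1 the origin recognition complex, Cdc6 and Cdt1 load the Mcm2-7 ring on DNA, and in S phase Cdc45 and the GINS complex join the ring and turn it into the running helicase. Polymerase alpha with primase then lays primers, replication factor C places the clamp Pcna on them, and polymerases delta and epsilon extend the strands. Transcription of many of these genes is switched on at the transition from G1 to S phase by E2F factors, so their RNA is known as a sign of cycling cells. In a resting spleen such RNA comes from dividing lymphocytes, germinal centre B cells and precursors of red and white blood cells.

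The libraries held an estimated 23600000 to 34300000 fragments each, so that 1 FPKM (the fragments of a gene relative to its length and to the depth of the library) of a gene with an effective length of 1000 bases stood for 23.6 to 34.3 fragments. Gapdh was at 430 to 894 FPKM in plckGAPDH spleens and 299 to 348 FPKM in wild-type spleens (log2 fold change 0.97, SE 0.49, limma FDR 0.635). The nodes held 312 and 554 FPKM of it. Wild-type spleen 5 held Y-linked RNA (30.5 FPKM of Eif2s3y), which was at 0 in every other library. Its Xist, an RNA of female cells, was at 0.09 FPKM, against 31.15 to 59.71 FPKM elsewhere. By these genes the only male was a wild-type animal, so sex was not balanced between the groups. This spleen also held 33216 FPKM of the globin gene Hbb-bs. Neutrophil genes were nearly missing from wild-type spleen 4 (S100a8 at 1.37 FPKM, against 1162 FPKM in wild-type spleen 1). Marker genes of lymph node stroma summed to 11.5 and 1.91 FPKM in nodes 455 and 508, against 2.32 to 11.5 FPKM in plckGAPDH spleens and 2.2 to 4.48 FPKM in wild-type spleens. Of these 6 genes Ccl21a, a chemokine of stromal cells, was at 9.53 FPKM in node 455 and at most 2.32 FPKM in every other library, while the vessel genes Glycam1 and Prox1 were at or near 0 in both nodes. The others were highest in plckGAPDH spleens. Ccl19 was at 5.09 FPKM and Lyve1 at 1.12 FPKM in spleen 343, against 0.62 and 0.42 FPKM and 0.84 and 0.06 FPKM in nodes 455 and 508. Madcam1 was at 8.52 FPKM in the unnumbered spleen, against 0.28 and 0.72 FPKM in these nodes. Red pulp markers of spleen summed to 27.5 to 122 FPKM in plckGAPDH spleens and 36.1 to 330 FPKM in wild-type spleens. Spleen 508 and node 508 carried the most 7SL RNA, an abundant short RNA, at 540720 and 745736 FPKM for the gene Rn7s1, against 88550 to 283094 FPKM elsewhere. FPKM is a share of each library, and the median of all genes tested lay at -0.41 in spleen 508 and -0.78 in node 508 on the log2(FPKM + 1) scale relative to the wild-type mean.

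Most replication genes had higher RNA in plckGAPDH than in wild-type spleens, but no single gene passed the test. Of the 44 genes, 42 had a positive log2 fold change, where 51.6% of the 12607 genes tested did. The median was 0.80, beside 0.02 over all genes tested, and without spleen 547 it was 0.48, beside -0.09. All 44 passed the filter on low values. None was called higher at a limma false discovery rate (FDR) under 0.05, where 0.206% of all genes were, and none lower, where 1.23% were. At an unadjusted limma p under 0.05 there were 14 of the 44 genes (31.8%), all of them with positive fold changes, beside 8.85% of all genes. In bulk samples, a change in the number of cells of a type and a change in RNA per cell cannot be told apart. The FDR of the 44 genes was lowest for Uhrf1, at 0.143. With limma's sample quality weights 25 of the 44 genes were called higher, beside 7.07% of all genes, in a fit that weighted wild-type spleen 1 at 24.8 and each other spleen at 0.296 to 2.04.

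For 11 of the 44 genes (25.0%) every plckGAPDH spleen lay above every wild-type spleen, beside 3.39% of all genes tested. These were Mcm6, Orc1, Cdc6, Cdc45, Prim1, Pole, Lig1, Rrm1, Tk1, Uhrf1 and Chaf1a, and they came from 7 of the 9 functional classes. None of the 44 lay below every wild-type spleen in all plckGAPDH spleens, where 3.88% of all genes did. The count depended on how libraries were scaled and on which were included. It was 18 with median-of-ratios scaling (6.45% of all genes), 20 with TMM-style scaling (7.37%), 22 without plckGAPDH spleen 343 (8.04%), 19 without wild-type spleen 5 (7.47%), 23 without wild-type spleens 4 and 5, a setting chosen after seeing the data (9.97%), and 1, Fen1, when the sum without receptor, globin and mitochondrial genes was the scale (1.1%). With the deposited FPKM and with 3 other scalings (median-of-ratios, TMM-style and protein-coding sum), 6 genes kept this pattern, namely Cdc45, Chaf1a, Orc1, Prim1, Tk1 and Uhrf1.

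**Figure D1:**
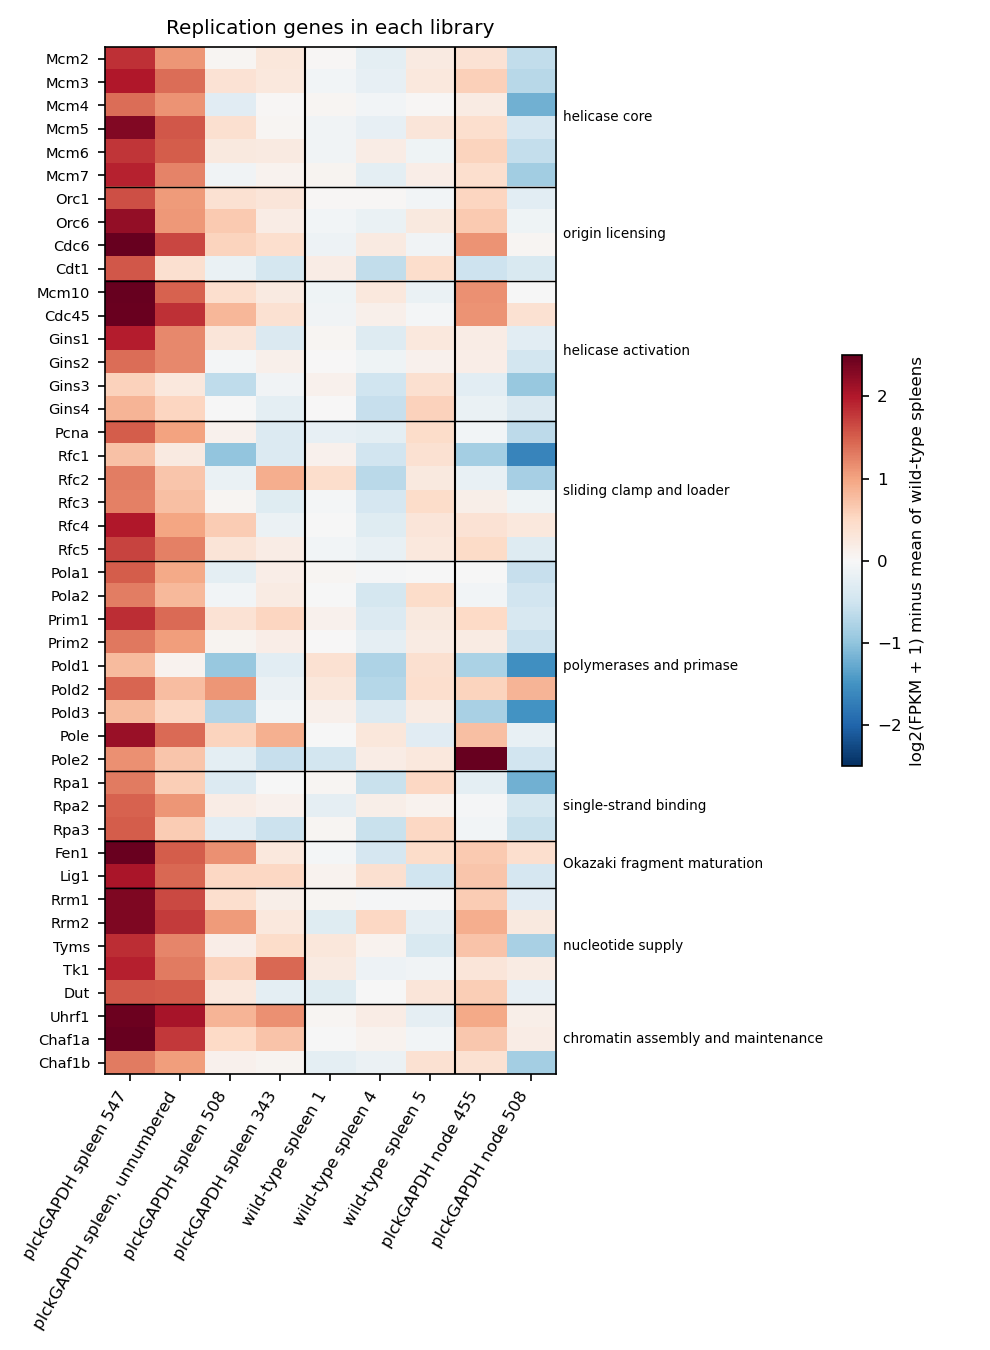
Each row is 1 of the 44 replication genes, grouped by role, and each column a library; the colour gives log2(FPKM + 1) minus the mean of the wild-type spleens, cut off at 2.5 in both directions. Spleen 547 and the unnumbered spleen are red in nearly every row, spleens 508 and 343 are paler, and in node 508 most rows are blue.

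The difference between the groups was carried unevenly by the plckGAPDH spleens. In spleen 547 all 44 genes lay above every wild-type spleen, where 45.8% of all genes tested did. The unnumbered spleen had 39 such genes (33.4% of all genes), spleen 508 had 22 (14.0%) and spleen 343 had 16 (16.4%). The median of the 44 genes relative to the wild-type mean was 1.65 for spleen 547 and 1.11 for the unnumbered one, and 0.21 for spleen 508 and 0.16 for 343, on the log2(FPKM + 1) scale. With median-of-ratios scaling the counts were 44, 40, 35 and 16 in the same order, beside 39.7%, 30.3%, 36.1% and 23.4% of all genes. That scaling raised the count of spleen 508 and not that of spleen 343.

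A rank within a library does not depend on how libraries are scaled. The median replication gene stood at percentile 77.1 of the genes tested in spleen 547, at 71.6 in the unnumbered one, at 67.7 in 508 and at 59.9 in 343, against 50.9, 56.3 and 53.1 in wild-type spleens 1, 4 and 5. All 4 plckGAPDH spleens were above all 3 wild-type spleens. The median of 15 mitosis genes, which are used later in the cycle, stood at percentile 82.2, 79.6, 72.7 and 45.7 in the same order, against 29.0, 51.8 and 30.1 in the wild-type spleens. Here spleen 343 lay within the range of the wild-type spleens. The 44 genes made up 0.385%, 0.311%, 0.195% and 0.238% of the protein-coding FPKM in plckGAPDH spleens 547, unnumbered, 508 and 343, and 0.173%, 0.187% and 0.123% in wild-type spleens 1, 4 and 5.

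**Figure D2:**
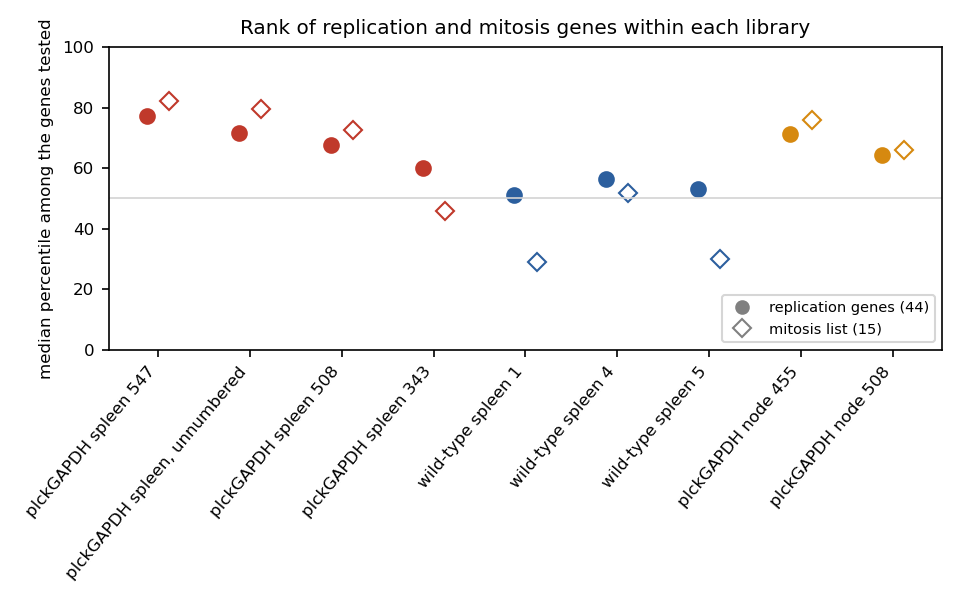
The vertical axis is the median percentile of the gene list among the genes tested within each library, and the libraries run along the horizontal axis; filled circles are the 44 replication genes and open diamonds the 15 mitosis genes. The circles of the plckGAPDH spleens run from 59.9 to 77.1 and those of the wild-type spleens from 50.9 to 56.3.

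Markers of several cell types, only some of them cycling, differed between the same libraries, and their part in these results was not tested. Precursors of red blood cells were marked most in spleen 547, where Klf1, a transcription factor of that lineage, was at 5.78 FPKM, against 0.12 to 0.66 FPKM in the other plckGAPDH spleens and 0.03 to 0.91 FPKM in wild-type spleens. All 10 erythroid markers reached 1 FPKM there. The summed erythroid list was highest in wild-type spleen 5, at 45293 FPKM, almost all of it globin RNA. The 7 germinal centre markers summed to 17.7 to 96.9 FPKM in plckGAPDH spleens and 26.7 to 74.5 FPKM in wild-type spleens. Neutrophil precursor genes summed to 126 to 358 FPKM in plckGAPDH spleens and 14.4 to 536 FPKM in wild-type spleens, and pan-T genes to 186 to 1286 FPKM and 452 to 758 FPKM. Pan-B genes summed to 596 to 1232 FPKM in plckGAPDH spleens and 440 to 1928 FPKM in wild-type spleens, and plasma cell genes to 83.9 to 4569 FPKM and 231 to 351 FPKM.

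In the values that follow, plckGAPDH spleens are listed as 547, unnumbered, 508 and 343, wild-type spleens as 1, 4 and 5, and lymph nodes as 455 and 508. Fold changes are on the log2(FPKM + 1) scale, which understates the change of genes with low values, and FDR is limma's over all genes tested. Positions are those of the mouse build GRCm38 (mm10) in GENCODE M21.

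The helicase core, the Mcm2-7 ring that unwinds DNA, had 6 of 6 positive fold changes with a median of 0.87, and none passed the test. Mcm6 (chromosome 1, 128331590 to 128359664) was the most abundant subunit, at 87.6, 72.2, 29.3 and 29.1 FPKM in plckGAPDH spleens, against 23.2, 28.4 and 23.1 FPKM in wild-type spleens. The lowest plckGAPDH spleen stood just above the highest wild-type spleen (log2 fold change 0.94, SE 0.48, FDR 0.651). Mcm5 (chromosome 8, 75109569 to 75128439) had the highest fold change of the ring, 1.07 (SE 0.53, FDR 0.626). It was at 49.6, 28.9, 12.4 and 9.50 FPKM in plckGAPDH spleens and 8.54, 7.82 and 11.6 FPKM in wild-type spleens, so spleen 343 lay within the wild-type range. Mcm4 had the lowest, 0.57 (SE 0.46, FDR 0.885), with 35.2, 28.9, 10.3 and 13.1 FPKM in plckGAPDH spleens and 13.2, 12.1 and 13.1 FPKM in wild-type spleens. Here only spleen 547 and the unnumbered spleen stood above the wild-type spleens, and spleen 508 was below all of them. Mcm2, Mcm3 and Mcm7 averaged 20.3 ± 12.3, 32.1 ± 19.3 and 34.2 ± 23.0 FPKM in plckGAPDH spleens (SD, n = 4), against 9.86 ± 1.74, 13.7 ± 2.51 and 16.3 ± 2.4 FPKM in wild-type spleens (SD, n = 3). Mcm7 overlaps Cops6 and Ap4m1 on the other strand and holds Mir25, Mir93 and Mir106b. Orc1, Orc6, Cdc45, Gins2, Pola1, Prim2, Pole, Lig1 and Chaf1a also overlap annotated genes on the other strand, besides those named below. Use of strand in counting was not given in the sources used here, and values of overlapping genes are uncertain.

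Subunits of the ring kept close proportions in every library. Relative to the median of the 6 subunits within a library, Mcm2 lay between 0.665 and 0.834, Mcm7 between 1.1 and 1.31, and Mcm6 between 1.56 and 2.4 over all 9 libraries. Mcm4 was at 0.658 to 0.886 in plckGAPDH spleens, against 0.885 to 1.02 in wild-type spleens. In the GINS complex, which joins the ring at the start of S phase, proportions differed more. Gins3 was at 0.358 to 0.740 of the complex median in plckGAPDH spleens, against 0.601 to 0.977 in wild-type spleens, and Gins4 at 1.90 to 3.61 and 3.17 to 4.99. These ranges overlap, and spleen 343 was the plckGAPDH spleen with the highest Gins3 proportion. Within primase and polymerase alpha, Prim1 was at 1.22 to 1.39 of the median in plckGAPDH spleens, against 0.976 to 1.08 in wild-type spleens, which do not overlap. Among the clamp loader subunits Rfc2 to Rfc5, Rfc3 had lower and Rfc5 higher proportions in plckGAPDH spleens, also without overlap. The ranges of all other subunits compared, including those of polymerase delta and RPA, overlapped or met. Prim1, Rfc3 and Rfc5 were singled out after their values were seen.

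**Figure D3:**
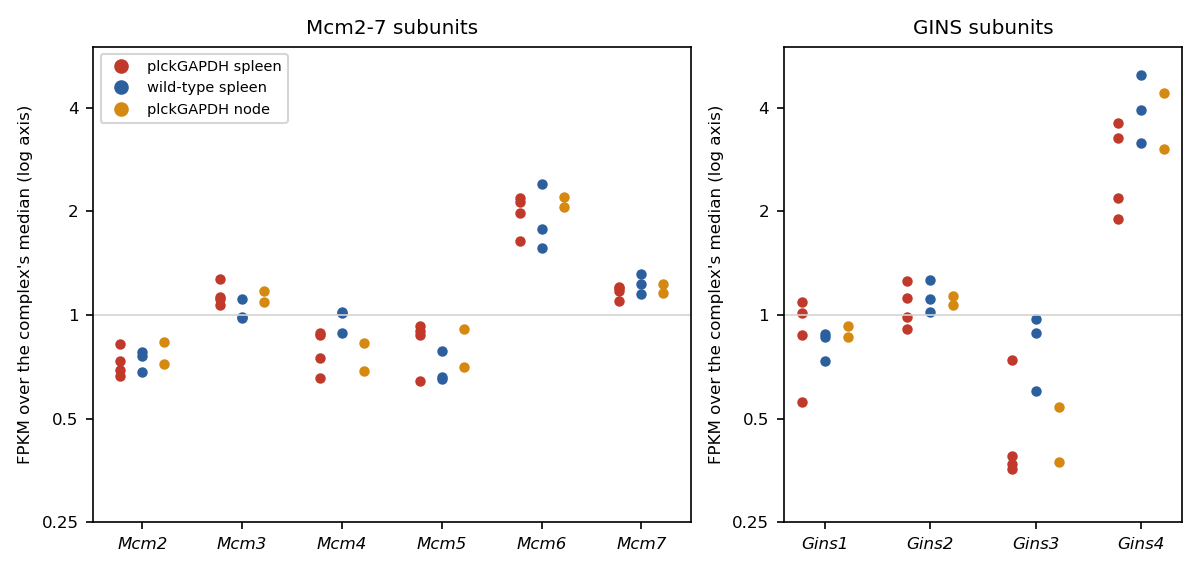
Each point is a library and gives the FPKM of a subunit divided by the median of its complex in that library, on a log axis, for the Mcm2-7 ring (left) and the GINS complex (right). The points of the Mcm2-7 subunits lie close together in all 3 groups, and those of Gins3 and Gins4 are spread.

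The promoters of the ring genes are shown because E2F factors are known to act there. A promoter was listed by RefSeq (GRCm38.p6) for 37 of the 44 genes, as a window of 300 bases around the start of transcription. The other 7 were Gins1, Gins2, Gins4, Mcm4, Pole, Prim2 and Rfc2. The E2F motif was searched as TTTCCCGC, TTTCGCGC, TTTGCCGC or TTTGGCGC on both strands, with overlapping matches allowed. It was found in 15 of the 37 genes (40.5%) and in 2.61% of all 27025 genes of the table. Of the 5 ring genes listed, Mcm3, Mcm5, Mcm6 and Mcm7 each held 2 or more matches, which 0.107% of all genes did, and Mcm2 held none. Their windows lie at chr1:20820263-20820562 (minus strand), chr8:75109259-75109558 (plus strand), chr1:128359656-128359955 (minus strand) and chr5:138171834-138172133 (minus strand, 1 of 2 windows listed for Mcm7). They read as follows from 5′ to 3′ on the strand of the gene, with matches to the E2F motif in capitals.
Mcm3: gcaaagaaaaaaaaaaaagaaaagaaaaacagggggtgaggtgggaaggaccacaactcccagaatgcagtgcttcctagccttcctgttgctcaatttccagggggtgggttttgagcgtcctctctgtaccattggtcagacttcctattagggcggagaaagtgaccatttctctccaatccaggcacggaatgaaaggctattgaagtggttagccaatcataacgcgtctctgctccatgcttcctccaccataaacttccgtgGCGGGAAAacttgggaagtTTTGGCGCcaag
Mcm5: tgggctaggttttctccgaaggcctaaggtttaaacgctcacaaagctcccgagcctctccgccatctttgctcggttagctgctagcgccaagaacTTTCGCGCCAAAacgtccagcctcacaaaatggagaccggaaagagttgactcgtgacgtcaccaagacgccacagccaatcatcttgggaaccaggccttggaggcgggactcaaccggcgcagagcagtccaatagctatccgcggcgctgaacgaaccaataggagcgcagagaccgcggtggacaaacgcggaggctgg
Mcm6: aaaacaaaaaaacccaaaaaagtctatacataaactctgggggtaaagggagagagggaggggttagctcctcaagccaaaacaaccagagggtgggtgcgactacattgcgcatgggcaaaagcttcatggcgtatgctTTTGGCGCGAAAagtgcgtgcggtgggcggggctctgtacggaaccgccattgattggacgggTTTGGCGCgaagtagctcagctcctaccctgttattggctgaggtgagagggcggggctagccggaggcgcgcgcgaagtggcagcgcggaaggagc
Mcm7: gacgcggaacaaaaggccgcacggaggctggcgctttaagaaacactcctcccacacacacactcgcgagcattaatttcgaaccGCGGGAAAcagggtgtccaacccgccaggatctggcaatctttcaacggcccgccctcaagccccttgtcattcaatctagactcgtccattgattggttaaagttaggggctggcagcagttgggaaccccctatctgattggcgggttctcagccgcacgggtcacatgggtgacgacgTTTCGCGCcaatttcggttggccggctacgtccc
In Mcm5 and Mcm6 a run of capitals holds 2 overlapping matches, 1 on each strand. The window of Mcm7 that is not shown held no match to the E2F motif. A match is a description of these letters and not a binding site. When the 37 genes were ordered by fold change, 6 of the 18 with the higher and 9 of the 19 with the lower fold changes held a match. The CCAAT motif, searched as CCAAT on both strands, was in 23 of the 37 genes (62.2%) and in 41.1% of all genes. The CHR motif, known from genes of mitosis and searched as TTTGAA or TTTAAA on both strands, was in 9 (24.3%) and in 30.6% of all genes.

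Among the licensing factors, which place the ring on DNA in G1, 4 of 4 fold changes were positive, with a median of 0.94. Cdc6 (chromosome 11, 98907801 to 98923940), the ATPase that helps load the ring, was at 16.4, 7.14, 2.78 and 2.45 FPKM in plckGAPDH spleens and 1.36, 2.00 and 1.41 FPKM in wild-type spleens. The groups did not overlap, and spleen 547 was far above the rest. Its mean was 4.53 times that of wild-type spleens, with a log2 fold change of 1.35 (SE 0.52, FDR 0.412). The Cdc6 promoter, at chr11:98907901-98908200 (plus strand), is shown as the licensing gene with the highest fold change, and it held 1 match to the E2F motif, in capitals.
Cdc6: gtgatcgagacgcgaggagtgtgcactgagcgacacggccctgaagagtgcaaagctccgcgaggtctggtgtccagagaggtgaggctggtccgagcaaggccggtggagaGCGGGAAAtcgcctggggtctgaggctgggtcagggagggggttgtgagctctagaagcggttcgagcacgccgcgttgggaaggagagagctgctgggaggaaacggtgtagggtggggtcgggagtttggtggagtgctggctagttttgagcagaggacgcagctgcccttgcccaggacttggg
Cdt1, the partner of Cdc6 that cells destroy once S phase begins, behaved otherwise. It was at 24.0, 10.3, 6.65 and 5.32 FPKM in plckGAPDH spleens and 8.71, 4.58 and 10.6 FPKM in wild-type spleens, so only spleen 547 was above all wild-type spleens. The log2 fold change was 0.33 (SE 0.50, FDR 0.970), and it was -0.07 without spleen 547. The ratio of Cdc6 to Cdt1 within a library ran from 0.418 to 0.695 in plckGAPDH spleens and from 0.133 to 0.437 in wild-type spleens. Orc1, the subunit of the origin recognition complex whose level changes with the cycle, averaged 2.16 ± 1.39 FPKM in plckGAPDH spleens (SD, n = 4) and 0.647 ± 0.0586 FPKM in wild-type spleens (SD, n = 3), with no overlap. Orc6, another subunit, averaged 12.4 ± 8.78 and 4.74 ± 0.870 FPKM in the same groups.

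Among the 6 genes that activate the helicase all fold changes were positive, with a median of 0.72, and they spread from 0.03 to 1.37. Cdc45 (chromosome 16, 18780447 to 18811987), which joins the ring to GINS, was at 19.3, 12, 5.56 and 3.79 FPKM in plckGAPDH spleens and 2.48, 3.02 and 2.57 FPKM in wild-type spleens. The wild-type spleens lay close together and below all plckGAPDH spleens, with a log2 fold change of 1.37 (SE 0.48, FDR 0.327). Gins3 was at 3.99, 3.02, 1.15 and 2.14 FPKM in plckGAPDH spleens and 2.59, 1.38 and 3.39 FPKM in wild-type spleens, and the groups overlapped (log2 fold change 0.03, SE 0.38, FDR 0.997). Gins4, the most abundant GINS subunit, was at 21.2, 16.9, 11.2 and 9.46 FPKM in plckGAPDH spleens and 11.4, 7.27 and 17.3 FPKM in wild-type spleens, with a log2 fold change of 0.28 (SE 0.42, FDR 0.971). Only spleen 547 was above all wild-type spleens. Mcm10, which helps the helicase start, averaged 7.23 ± 6.91 FPKM in plckGAPDH spleens (SD, n = 4) and 1.82 ± 0.479 FPKM in wild-type spleens (SD, n = 3). Gins1 and Gins2 averaged 5.92 ± 4.66 and 6.39 ± 3.57 FPKM in plckGAPDH spleens and 2.42 ± 0.689 and 3.23 ± 0.325 FPKM in wild-type spleens.

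**Figure D4:**
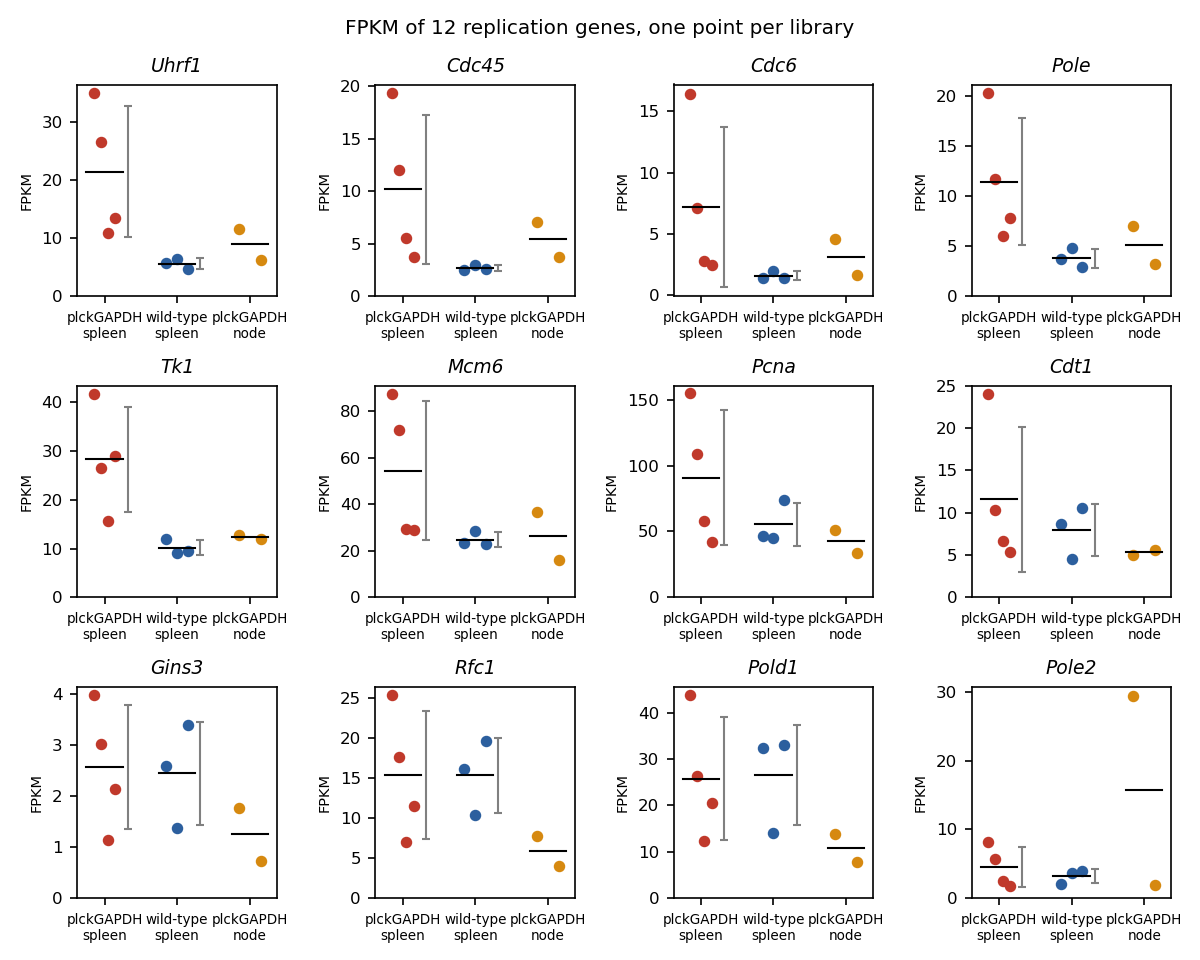
Each panel is 1 gene, with FPKM on the vertical axis, 1 point per library, a line at the group mean and, for the spleen groups, a bar of 1 SD beside it. Wild-type spleens of Uhrf1, Cdc45 and Cdc6 lie below all plckGAPDH spleens, those of Gins3, Rfc1 and Pold1 lie among them, and Pole2 is at 29.4 FPKM in node 455.

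The clamp and its loader had 5 positive and 1 negative fold changes, with a median of 0.62, and no gene without overlap between the groups. Pcna (chromosome 2, 132249162 to 132253314), the ring that holds polymerases on DNA, was the most abundant of the 44 genes, at 155, 109, 57.8 and 42.1 FPKM in plckGAPDH spleens, against 46.7, 45.1 and 74.0 FPKM in wild-type spleens. Spleen 343 was below all wild-type spleens, and the log2 fold change was 0.56 (SE 0.51, FDR 0.905). Rfc4, a small subunit of the loader, had the highest fold change, 0.87 (SE 0.48, FDR 0.704), with 25.0, 11.8, 9.08 and 4.87 FPKM in plckGAPDH spleens and 5.47, 4.27 and 6.98 FPKM in wild-type spleens. Spleen 343 was again within the wild-type range. Rfc1 (chromosome 5, 65261850 to 65335670), the large subunit of the loader, had the lowest fold change of the 44 genes, -0.09 (SE 0.46, FDR 0.993). It was at 25.3, 17.6, 7.0 and 11.5 FPKM in plckGAPDH spleens and 16.1, 10.3 and 19.6 FPKM in wild-type spleens, with spleen 508 the lowest spleen of all. Its sign turned to 0.21 without plckGAPDH spleen 508 and to 0.10 without wild-type spleen 5. The Rfc1 promoter, at chr5:65335590-65335889 (minus strand), is shown beside those above because it held no match to the E2F motif. Cdc45, Chaf1a, Tk1 and Rrm2, with higher fold changes, held none either. Gins3 and Pold1, with log2 fold changes of 0.03 and -0.08, held 1 each. The Rfc1 promoter reads as follows, with no capitals.
Rfc1: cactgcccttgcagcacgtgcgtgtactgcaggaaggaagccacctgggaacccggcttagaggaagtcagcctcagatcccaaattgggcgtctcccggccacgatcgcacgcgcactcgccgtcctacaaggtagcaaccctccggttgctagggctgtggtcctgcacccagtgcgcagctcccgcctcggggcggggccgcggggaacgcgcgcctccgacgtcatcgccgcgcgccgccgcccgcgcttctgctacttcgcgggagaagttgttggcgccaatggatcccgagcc
Rfc2, Rfc3 and Rfc5 averaged 53.5 ± 20.5, 13.3 ± 6.88 and 15.3 ± 8.14 FPKM in plckGAPDH spleens (SD, n = 4), against 32.7 ± 12.3, 8.96 ± 3.02 and 7.24 ± 1.39 FPKM in wild-type spleens (SD, n = 3). Rfc4 overlaps Eif4a2, Rfc2 overlaps Lat2 and Rfc5 overlaps Wsb2, each on the other strand.

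The polymerases and primase differed from enzyme to enzyme. Pole (chromosome 5, 110286306 to 110337474), the catalytic subunit of polymerase epsilon, which extends the leading strand, was at 20.3, 11.7, 6.01 and 7.78 FPKM in plckGAPDH spleens and 3.71, 4.79 and 2.92 FPKM in wild-type spleens, with no overlap. Its log2 fold change was 1.26 (SE 0.43, FDR 0.302). Pold1 (chromosome 7, 44532746 to 44548849), the catalytic subunit of polymerase delta, which extends the lagging strand, was at 43.8, 26.3, 12.4 and 20.6 FPKM in plckGAPDH spleens and 32.5, 14.2 and 33.0 FPKM in wild-type spleens. Its groups overlapped and its log2 fold change was -0.08 (SE 0.49, FDR 0.996). The sign turned to 0.21 without plckGAPDH spleen 508, to 0.10 without wild-type spleen 1 and to 0.12 without wild-type spleen 5. Pold3 averaged 15 ± 6.80 FPKM in plckGAPDH spleens (SD, n = 4) and 12.8 ± 2.63 FPKM in wild-type spleens (SD, n = 3), and Pold2 16.2 ± 7.14 and 8.69 ± 3.59 FPKM. The ratio of Pold2 to Pold1 within a library, chosen after its values were seen, was 0.353 to 1.5 in plckGAPDH spleens, against 0.312 to 0.344 in wild-type spleens, and was highest in spleen 508 and, at 1.96, in node 508. Over the 9 genes the median was 0.60, with 8 positive fold changes and 2 genes, Pole and Prim1, without overlap. Prim1, the catalytic subunit of primase, averaged 13.6 ± 7.13 FPKM in plckGAPDH spleens and 5.58 ± 1.31 FPKM in wild-type spleens. Pola1, Pola2 and Prim2 averaged 8.18 ± 4.90, 11.2 ± 5.18 and 9.12 ± 4.26 FPKM in plckGAPDH spleens, against 4.43 ± 0.172, 7.03 ± 2.48 and 5.05 ± 0.895 FPKM in wild-type spleens. Pole2, the second subunit of polymerase epsilon, averaged 4.55 ± 2.97 and 3.25 ± 1.06 FPKM in the same groups.

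The single-strand binding complex RPA, which coats unwound DNA, had a median of 0.39 and 3 of 3 positive fold changes. Rpa1 (chromosome 11, 75298166 to 75348324), the large subunit, was at 63.3, 39.0, 19.7 and 24.9 FPKM in plckGAPDH spleens and 26.2, 16.8 and 36.4 FPKM in wild-type spleens. Rpa2, the middle subunit, had the highest fold change, 0.72 (SE 0.43, FDR 0.764), with 30.3, 23.0, 11.8 and 11.1 FPKM in plckGAPDH spleens and 8.54, 11.5 and 10.9 FPKM in wild-type spleens. Rpa3, the small subunit, had the lowest, 0.34 (SE 0.52, FDR 0.972), with 41.7, 22.1, 11.5 and 9.34 FPKM in plckGAPDH spleens and 14.5, 9.08 and 20.3 FPKM in wild-type spleens. In all 3 genes the groups overlapped, and spleen 343 lay within the wild-type range.

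The enzymes that finish Okazaki fragments had 2 of 2 positive fold changes, with a median of 1.23. Fen1 (chromosome 19, 10199132 to 10204169), the nuclease that trims the flap before each join, was at 47.0, 23.6, 18.0 and 9.42 FPKM in plckGAPDH spleens and 7.42, 5.47 and 10.9 FPKM in wild-type spleens. Only spleen 343 was not above all wild-type spleens, and the log2 fold change was 1.34 (SE 0.50, FDR 0.388). The gene overlaps Tmem258 on the other strand. The ratio of Fen1 to Rfc1 within a library, chosen after its values were seen, was 0.819 to 2.57 in plckGAPDH spleens, against 0.462 to 0.557 in wild-type spleens. Lig1, the ligase that seals the nick, was at 23.6, 15.3, 7.56 and 7.57 FPKM in plckGAPDH spleens and 5.42, 6.91 and 3.27 FPKM in wild-type spleens, with no overlap and a log2 fold change of 1.12 (SE 0.45, FDR 0.458).

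The nucleotide supply genes had 5 of 5 positive fold changes, with a median of 1.13. Rrm2 (chromosome 12, 24708241 to 24714146), the subunit of ribonucleotide reductase that cells make in S phase, had the highest, 1.36 (SE 0.50, FDR 0.378). It was at 43.9, 29.1, 17.8 and 9.73 FPKM in plckGAPDH spleens and 6.27, 11.8 and 6.61 FPKM in wild-type spleens, with spleen 343 below wild-type spleen 4. Dut, the enzyme that keeps uracil out of DNA, was the most abundant of the class over the spleens and had the lowest fold change, 0.77 (SE 0.50, FDR 0.802). It was at 45.1, 44.3, 17.9 and 12.2 FPKM in plckGAPDH spleens and 11.7, 14.7 and 18.6 FPKM in wild-type spleens, with spleens 508 and 343 among the wild-type spleens. Tk1 (chromosome 11, 117815526 to 117826092), the thymidine kinase of dividing cells, was at 41.8, 26.6, 15.7 and 29.1 FPKM in plckGAPDH spleens and 12, 9.15 and 9.55 FPKM in wild-type spleens. Tk1 and Rfc2 were the 2 genes of the 44 in which spleen 343 was above the unnumbered spleen. Its log2 fold change was 1.31 (SE 0.41, FDR 0.230), and it was called with median-of-ratios scaling (1.35, FDR 0.0430, with 0.0954% of all genes called higher) and with TMM-style scaling (1.40, FDR 0.0462, with 0.119%). The gene overlaps Afmid on the other strand. Rrm1, the large subunit of the reductase, averaged 30.0 ± 21.3 FPKM in plckGAPDH spleens (SD, n = 4) and 10.7 ± 0.356 FPKM in wild-type spleens (SD, n = 3), and Tyms, which makes thymidylate, 23.0 ± 12.7 and 10.6 ± 2.63 FPKM.

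The chromatin genes had 3 of 3 positive fold changes and the highest median of the classes, 1.38. Uhrf1 (chromosome 17, 56303321 to 56323486), which recognises hemimethylated DNA behind the fork and brings in the maintenance methyltransferase, was at 35.0, 26.6, 10.9 and 13.5 FPKM in plckGAPDH spleens and 5.82, 6.47 and 4.65 FPKM in wild-type spleens. Every plckGAPDH spleen was above every wild-type spleen. The means were 21.5 ± 11.3 FPKM (SD, n = 4) and 5.65 ± 0.922 FPKM (SD, n = 3), and the log2 fold change of 1.63 (SE 0.44, FDR 0.143) was the highest of the 44 genes. RefSeq lists 2 windows for Uhrf1. The one at chr17:56303087-56303386 (plus strand), which spans the start of the gene given above, held no match to the E2F motif. The other, at chr17:56304063-56304362 (plus strand), is shown for the gene with the highest fold change. It held 1 match, in capitals.
Uhrf1: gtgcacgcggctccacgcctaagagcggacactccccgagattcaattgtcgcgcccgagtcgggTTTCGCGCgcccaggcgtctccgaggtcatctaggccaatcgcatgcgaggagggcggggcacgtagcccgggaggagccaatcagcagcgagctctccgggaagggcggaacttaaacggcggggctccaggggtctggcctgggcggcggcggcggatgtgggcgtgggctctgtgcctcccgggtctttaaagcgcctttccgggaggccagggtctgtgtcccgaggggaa
Chaf1a, the large subunit of the histone chaperone CAF-1, averaged 5.18 ± 4.12 FPKM in plckGAPDH spleens (SD, n = 4) and 1.02 ± 0.110 FPKM in wild-type spleens (SD, n = 3). That ratio of means, 5.10, was the highest of the 44 genes, with a log2 fold change of 1.38 (SE 0.47, FDR 0.307). Chaf1b, the second subunit of CAF-1, was at 10.6, 8.74, 4.07 and 3.90 FPKM in plckGAPDH spleens and 2.97, 3.23 and 5.15 FPKM in wild-type spleens, with a log2 fold change of 0.63 (SE 0.41, FDR 0.806). Here spleens 508 and 343 lay within the wild-type range.

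**Figure D5:**
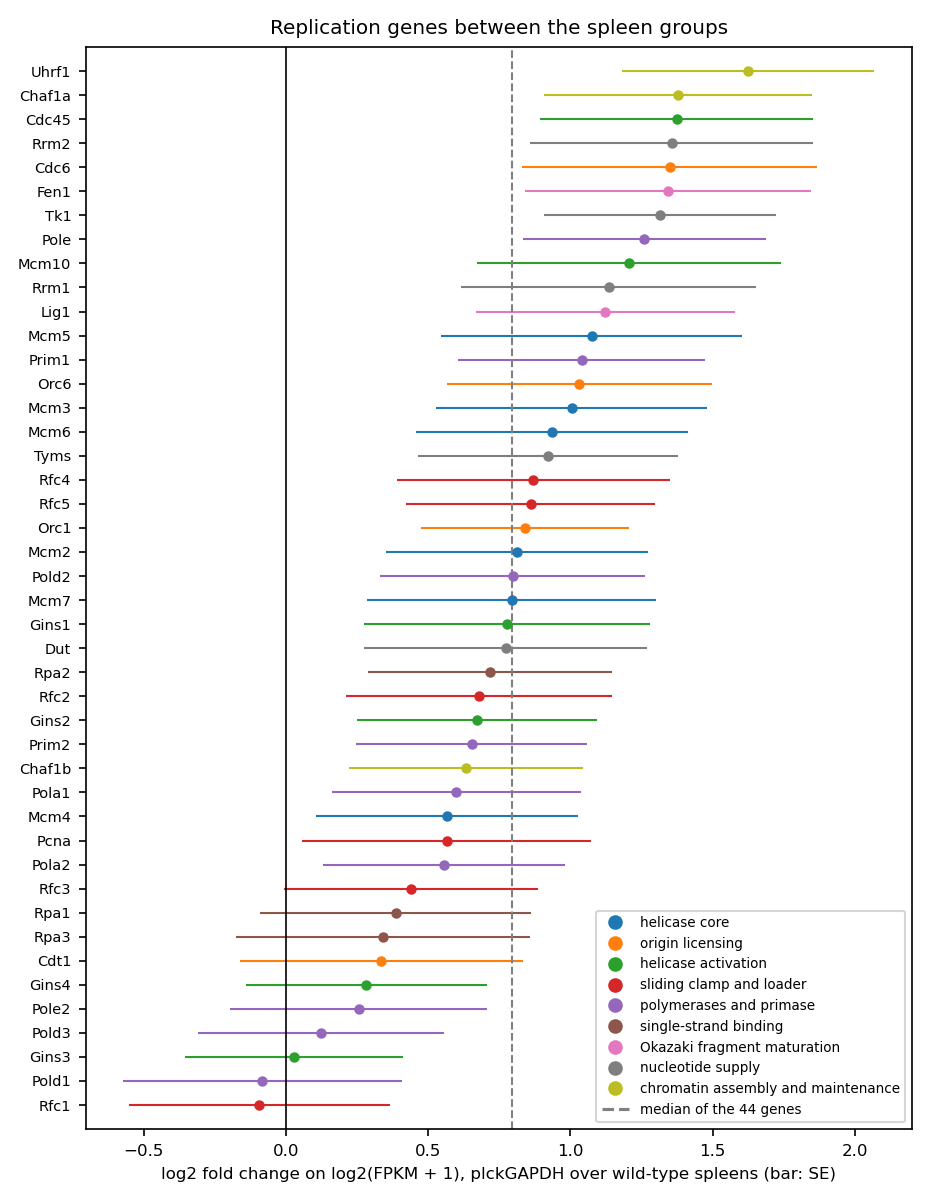
Points are the log2 fold changes of the 44 genes on the log2(FPKM + 1) scale, plckGAPDH over wild-type spleens, with bars of 1 SE, coloured by role and sorted by size; the dashed line is the median of 0.80. The fold changes run from 1.63 for Uhrf1 to -0.09 for Rfc1.

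Other genes of the pathway, taken from fixed lists, had mostly positive fold changes as well. Of 86 such genes 85 were tested, 68 had positive fold changes, where 51.6% of all genes did, none was called, and the median was 0.61 (0.37 without spleen 547). An unadjusted limma p under 0.05 was reached by 28 of them, beside 8.85% of all genes. With sample quality weights 37 were called higher and 2 lower, where 7.07% and 7.71% of all genes were. Without plckGAPDH spleen 343, 6 of 83 genes tested were called higher, where 0.661% of all genes were. Mitosis genes had the highest median, 1.51, with 15 of 15 positive. Other replisome and origin genes had 23 of 31 positive with a median of 0.49, G1/S regulators 16 of 20 with 0.53, chromatin genes 9 of 10 with 0.55 and nucleotide genes 5 of 9 with 0.57.

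The 3 highest fold changes of these lists were those of Mki67, a marker of cycling cells, Ccnb1, the mitotic cyclin B1, and Top2a, the topoisomerase that untangles copied chromosomes. Mki67 was at 146, 68.2, 42.5 and 28.6 FPKM in plckGAPDH spleens and 15.8, 22.8 and 6.37 FPKM in wild-type spleens, with a log2 fold change of 2.07 (SE 0.58, FDR 0.166). Top2a was at 179, 117, 50.7 and 30.8 FPKM in plckGAPDH spleens and 20.1, 28.7 and 11.9 FPKM in wild-type spleens (log2 fold change 1.94, SE 0.59, FDR 0.216). In both genes the groups did not overlap. Ccnb1 was at 64.4, 28.5, 13.3 and 5.45 FPKM in plckGAPDH spleens and 3.33, 5.50 and 3.78 FPKM in wild-type spleens, and spleen 343 was level with wild-type spleen 4 (log2 fold change 2.00, FDR 0.251).

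The 3 lowest were Ccnd1, a cyclin of early G1, at -1.32, Tk2, the mitochondrial thymidine kinase, at -0.96, and Rrm2b, the reductase subunit used outside S phase, at -0.56. Tk2 was at 4.07, 7.34, 4.51 and 10.8 FPKM in plckGAPDH spleens and 19.5, 6.31 and 17.8 FPKM in wild-type spleens, and Rrm2b at 5.99, 5.05, 4.63 and 9.20 FPKM and 11.4, 5.77 and 12.2 FPKM. Both overlapped between the groups. Their counterparts of dividing cells, Tk1 and Rrm2, had log2 fold changes of 1.31 and 1.36.

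Of the E2F factors, the activators E2f1, E2f2 and E2f3 had log2 fold changes of 0.63, 0.50 and 0.02. E2f4 was at 0.14. The repressors E2f7 and E2f8, which are themselves made in S phase, were at 0.96 and 1.29. E2f1 was low, at 2.60, 1.44, 1.22 and 1.46 FPKM in plckGAPDH spleens and 0.790, 0.630 and 0.670 FPKM in wild-type spleens, without overlap. The S phase cyclins Ccne1 and Ccne2 were at 0.61 and 0.90. Cdc7 and Dbf4, the kinase that fires origins and its activator, were at 0.36 and 0.75, and Gmnn, the inhibitor of Cdt1, at 1.30. Gmnn was at 43.2, 19.8, 11.2 and 8.16 FPKM in plckGAPDH spleens and 6.78, 5.16 and 6.95 FPKM in wild-type spleens, so that it did not overlap between the groups while Cdt1 did. Clspn, which links the fork to the checkpoint, was at 1.38, and Dnmt1, the methyltransferase that works with Uhrf1, at 0.49. Dnmt1 was at 49.1, 35.8, 12.2 and 18.9 FPKM in plckGAPDH spleens and 18.6, 16.8 and 17.8 FPKM in wild-type spleens, with spleen 508 below all of them. None of these genes passed the test, with limma FDR between 0.273 and 0.997.

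Lymph nodes of plckGAPDH mice had lower deposited values of replication genes than plckGAPDH spleens, as most genes did. Of the 44 genes 43 had negative fold changes, where 89.1% of the 13682 genes tested did, and the median was -0.88, beside -0.59 over all genes. None was called higher or lower, where 0.00731% of all genes were in each direction. The FDR ran from 0.359 to 0.892, and 5 genes had an unadjusted limma p under 0.05 (11.4%, beside 11.3% of all genes). In 4 of the 44 genes (9.09%) both nodes lay below all plckGAPDH spleens, beside 30.0% of all genes, and it was 11 without plckGAPDH spleen 343 (37.9%) and 14 without plckGAPDH spleen 508 (52.9%). With median-of-ratios scaling the median was -0.22, beside -0.01, 8 of the 44 genes had positive fold changes, and 2 lay below all plckGAPDH spleens (5.04%). With 2 nodes, leaving out node 455 took the median to -1.19, with 36 genes below all spleens (67.2% of all genes), and leaving out node 508 took it to -0.45. Without plckGAPDH spleen 547 it was -0.59. Animal 508 also gave a spleen to this comparison.

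The nodes differed from each other. Their sample titles also differ, with MES for animal 455 and LN for animal 508. Node 455 had 27 of the 44 genes above every wild-type spleen (11.3% of all genes), and node 508 had 3 (7.89%). With median-of-ratios scaling these were 36 (31.0%) and 29 (36.8%). The median percentile within the library, which does not depend on scaling, was 71.2 in node 455 and 64.2 in node 508, within the range of the plckGAPDH spleens. In animal 508 all 44 genes were lower in the node than in the spleen, with a median difference of -0.64, where 85.8% of all genes were lower with a median of -0.36. With median-of-ratios scaling 32 were lower, with a median of -0.20. Pcna was at 51.3 and 33.9 FPKM in the nodes and 155, 109, 57.8 and 42.1 FPKM in plckGAPDH spleens, and Mcm6 at 36.9 and 16.1 FPKM in the nodes and 87.6, 72.2, 29.3 and 29.1 FPKM in plckGAPDH spleens. Uhrf1 was at 11.7 and 6.35 FPKM in the nodes and 35.0, 26.6, 10.9 and 13.5 FPKM in plckGAPDH spleens. In all 3 genes node 508 was below every plckGAPDH spleen and node 455 was not. Node 455 also held the germinal centre gene Rgs13 at 36.4 FPKM, against 0.08 FPKM in node 508.

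Pole2 (chromosome 12, 69201773 to 69228195, minus strand) was the exception to the direction in the nodes, and it came from 1 library. It was at 29.4 and 1.98 FPKM in the nodes and 8.18, 5.74, 2.53 and 1.77 FPKM in plckGAPDH spleens, against 2.04, 3.73 and 3.99 FPKM in wild-type spleens. The value of node 455 was 3.59 times that of the highest other library. No other of the 44 genes exceeded its highest other library there, and the next stood at 0.517 of it. The fold change was 0.94 (SE 0.78, FDR 0.432), and it was -0.73 without node 455. Catalytic Pole was at 6.99 and 3.18 FPKM in the nodes, also higher in node 455 but within the 2.92 to 20.3 FPKM of the spleens. The neighbouring gene Klhdc2 (chromosome 12, 69296681 to 69310687) was at 76.4 FPKM in node 455, against 8.20 to 25.2 FPKM in the other libraries, and Dnaaf2, on the other side of Pole2, at 9.19 FPKM, against 2.00 to 4.81 FPKM. Klhdc1, between Pole2 and Klhdc2, was at 3.78 FPKM, within the 2.00 to 13.8 FPKM of the others, as were Mgat2 and Nemf. Over the table, 56 of 13682 genes stood 3-fold or more above their highest other library in node 455. These neighbours were chosen after their values were seen.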

How the data were processed

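RNA of 9 samples was measured as FPKM (relative to gene length and library depth) in a deposited table of 46517 genes. The build was mm10 and the tools Bowtie2 2.2.6, RSEM, Subread 1.5.0-p3 featureCounts and STAR 2.4.0a, per the submitters' processing notes. The tool behind the FPKM and the use of strand were not given in the sources used here. Per the labels' protocols, libraries were made from total RNA with a stranded kit.

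Low FPKM fell on whole multiples of 1 fragment in 77.4% to 84.5% of the values checked (tolerance 0.02 of a fragment), which gave the estimated depth. On simulated libraries its largest error was 1.29%. FPKM is a share, and mitochondrial ribosomal RNA took 23.7% to 53.8% of fragments. The 36 pairs of libraries had at most 0.257% of values in common, so no column was a copy of another. This does not show if the columns came from separate animals. Each library was treated as 1 sample.

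As the values are no counts, the planned test for normalized values was used: limma 3.58.1 (R 4.3.3), with its trend option, on log2(FPKM + 1), and Benjamini-Hochberg FDR under 0.05 over all genes. Spleens were fitted alone (1 FPKM in 3 of 7 spleens), and nodes against plckGAPDH spleens with all 9 samples in 3 groups (1 FPKM in 2). The fit was run on simulated spleens with known log2 changes, and the check was that the mean estimate lay near them. The share of such changes that it calls is not given here. Every one of the 44 genes is named. All libraries are given for those with the highest mean and the highest and lowest fold change of each class, and other genes listed that way were chosen after their values were seen. Members, classes and lists were chosen with earlier results of these data known, so lists get no test of their own. Sequences are RefSeq's (GRCm38.p6) and positions GENCODE M21's, computed with Python 3.11.15.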

Additional observations from a re-analysis of the deposited data

How the results depend on the processing

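No gene of the 44 was called between the spleens under 15 of the settings tried, including each spleen left out in turn, and none was called lower or called in the nodes under any. With limma, 1 gene was called higher with median-of-ratios (0.0954% of all genes) and 1 with TMM-style scaling (0.119%), Tk1 in both, and 25 with sample quality weights (7.07%), a fit that rested mostly on wild-type spleen 1. The median fold change stayed positive between the spleens, 0.48 to 1.05 over all settings, and negative in the nodes, -1.19 to -0.22. The count of genes without overlap was 18 with median-of-ratios (6.45% of all genes), 20 with TMM-style (7.37%) and 19 with protein-coding scaling (7.24%). It was 1 (1.1%) with scaling without receptor, globin and mitochondrial genes, a sum of which 7SL RNA made 28.3% to 58.1% in the spleens. Without wild-type spleens 4 and 5, a setting chosen after seeing the data, it was 23 (9.97%). Leaving out 1 spleen gave 11 to 22. Leaving out 1 spleen at a time turned the sign of genes near 0: Cdt1 ran from -0.0682 to 0.59, Gins3 from -0.22 to 0.25, Gins4 from -0.00755 to 0.57, Rfc1 from -0.37 to 0.21, Pold1 from -0.47 to 0.21, Pold3 from -0.0974 to 0.41, Pole2 from -0.0409 to 0.54 and Rpa3 from -0.0517 to 0.63. Gins3 and Pold3 were at -0.0798 and -0.0956 with scaling without receptor, globin and mitochondrial genes and at -0.0736 and -0.0100 without wild-type spleens 4 and 5, and Pold1 was at 0.00615 with TMM-style scaling. In the nodes, leaving out 1 sample took Pold2 from -0.41 to 0.13 and Pole2 from -0.73 to 2.61, and a lone node was assumed to vary like the other groups. Median-of-ratios scaling turned Cdc45 to 0.0523, Gins4 to 0.17, Rfc3 to 0.29, Rfc4 to 0.14, Pold2 to 0.64, Rpa3 to 0.0840 and Dut to 0.17 there. The cause of these turns was not tested. No paired analysis was possible because only animal 508 was shared between groups. With 4 and 3 spleens, 2 nodes and FPKM in place of counts, low genes such as Orc1 are measured with few fragments, and scaling decides part of each level.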

Other observations

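The subunits of the origin recognition complex did not share one pattern. Orc1 and Orc6 had log2 fold changes of 0.84 and 1.03 between plckGAPDH and wild-type spleens, while Orc2, Orc3, Orc4 and Orc5 were at 0.33, -0.09, -0.07 and -0.26, none of them past the limma test. Orc3 was at 19.9 to 33.1 FPKM in plckGAPDH spleens and 22.4 to 33.3 FPKM in wild-type spleens. Ticrr, which helps bring Cdc45 to origins, was at 5.28, 2.86, 1.53 and 1.28 FPKM in plckGAPDH spleens 547, unnumbered, 508 and 343, against 0.51, 0.77 and 0.47 FPKM in wild-type spleens 1, 4 and 5, with no overlap (log2 fold change 1.12, SE 0.38, limma FDR 0.306). Donson, another factor of helicase assembly, was at 5.43 to 11.1 FPKM in plckGAPDH spleens and 8.69 to 14.2 FPKM in wild-type spleens (log2 fold change -0.39, SE 0.38, limma FDR 0.916). These genes were chosen after their values were seen.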
